A study of Homo sapiens with 8 samples.

Results

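Retinoid metabolism and signalling was followed through 9 genes: RETSAT, RDH10, DHRS3, ALDH1A3, CRABP2, CYP26A1, RARA, RARB and RARG. They were chosen because DHRS3 was lower after Z325 in HCT116 and not in NCI-H716, so the DHRS3 values are given as a description with no test. The genes were found by symbol among 63241 genes measured in NCI-H716 and 28043 genes measured in HCT116. All 9 were found in NCI-H716, and 5 of 9 in HCT116, where the values used covered chromosomes 1 to 8 and part of chromosome 9. ALDH1A3, CYP26A1, RARA and RARG lie outside that range and were not analysed here in HCT116.

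HCT116 and NCI-H716 are established human colorectal cancer cell lines, and Z325 (ZINC000101867325) is a small molecule selected by docking against fibroblast growth factor receptors. Transcripts were sequenced from 4 groups, control and treated cells of each line, as 2 libraries per group, and the labels call the treated samples Test. Each SMART-Seq2 library was made from about 100 cells. The labels give neither the dose, the duration nor what the controls received. The study describes the libraries as biological duplicates, but nothing ties them to separate cultures, so each p-value measures the spread between these libraries, which may be technical.

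Library totals ran from 3434620 to 13396225 counts over the listed genes of HCT116 and from 10210239 to 19738840 in NCI-H716. Z325 replicate 2 of HCT116 was the shallowest library, with 3434620 counts, and values of HCT116 without it are given beside the members and once for the wider pathway. Of the marker genes of epithelium, EPCAM was abundant in HCT116 and VIL1 was near 0. In NCI-H716 the 7 epithelial markers summed to between 755 and 783 CPM (counts scaled to the library total) in control cells and between 644 and 657 after Z325. The 5 enteroendocrine markers summed to between 2660 and 3110 CPM in control cells and between 2520 and 2540 after Z325. Both sums were lower in the treated libraries, but their members did not all move together. GCG went from 2541 and 2015 CPM in control cells to 1825 and 1642 after Z325, and SYP was also lower. CHGB rose from 458 and 525 to 585 and 765 CPM, INSM1 was higher too, and CHGA overlapped. Of the epithelial markers, CDH1 was near 0 and KRT19 overlapped. Fibroblast markers summed to between 494 and 521 and between 471 and 511 CPM, through COL3A1 and LUM, while COL1A1 and DCN were near 0. The part of these differences in the NCI-H716 results was not tested. Endothelial markers reached at most 0.388 CPM in either line. In bulk RNA, fewer cells of a kind and less RNA per cell cannot be told apart.

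Retinol, or vitamin A, is oxidised to retinal and then irreversibly to retinoic acid, which binds nuclear retinoic acid receptors paired with retinoid X receptors and switches on genes of differentiation, in intestinal epithelium among other tissues. RDH10 and DHRS3 catalyse opposite directions of the reversible step, RDH10 making retinal from retinol and DHRS3 returning it. CRABP2 carries retinoic acid to the receptors and CYP26 enzymes destroy it, and several of these genes, among them DHRS3, RARB, CYP26A1 and CRABP2, are known to be induced by retinoic acid itself.

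Because the receptors recognise paired copies of a short motif, the promoters of the 9 genes were searched for direct repeats. Windows of 300 bases, from 250 bases before to 50 bases after each RefSeq transcription start (GRCh38.p14), were available for 8 of the 9 genes, 16 windows in all. Each was read on both strands for a pair of copies, in the same orientation, of the unit AGGTCA, of its variant AGTTCA, of GGGTCA or of GGTTCA spaced 1, 2 or 5 bases apart, any of the 4 units pairing with any other. A repeat with spacing 5 was found in RARB and in CYP26A1, in 2 of 16 windows, against 0.0883% of 35116 promoters of the same length. Spacings 1 and 2, held by 0.131% and 0.0399% of all promoters, were not found in these windows. Both genes are named above as induced by retinoic acid and the units were chosen for its receptors, so the share is a description. The sites are printed 5′ to 3′ on the gene's strand with the repeat in capitals. The RARB repeat, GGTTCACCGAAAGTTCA, lies 53 to 37 bases before the start on the gene's strand, within chr3:25428204-25428233 (plus strand). The CYP26A1 repeat reads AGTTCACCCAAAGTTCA on the other strand and lies 90 to 74 bases before the start, within chr10:93073797-93073826 (plus strand). Both repeats overlap annotated exons of longer transcripts of the same genes.
RARB: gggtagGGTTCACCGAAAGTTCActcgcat
CYP26A1: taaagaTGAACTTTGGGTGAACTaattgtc

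DHRS3 and CRABP2, the members that were lower together in HCT116, held no such repeat in the windows searched. A stretch free of annotated exons is shown for each, on the gene's strand with single copies of the 6-base units in capitals. The DHRS3 stretch is chr1:12616796-12617039 (minus strand), 244 bases before an internal RefSeq start of the gene. The CRABP2 stretch is chr1:156705817-156706034 (minus strand), 218 bases. Each holds 1 single copy. Of all promoter windows, which at 300 bases are longer than these stretches, 38.6% hold at least 1. A further DHRS3 stretch, 250 bases before another internal start, also holds 1 copy and is not printed. The DHRS3 window at the 5′ end of the gene gave no exon-free stretch. A match of letters is a description and not a measured binding site.
DHRS3: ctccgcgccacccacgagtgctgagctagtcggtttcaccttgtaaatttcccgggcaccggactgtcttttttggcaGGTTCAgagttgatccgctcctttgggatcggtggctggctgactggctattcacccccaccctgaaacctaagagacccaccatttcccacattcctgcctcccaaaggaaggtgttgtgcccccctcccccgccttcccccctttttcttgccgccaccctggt
CRABP2: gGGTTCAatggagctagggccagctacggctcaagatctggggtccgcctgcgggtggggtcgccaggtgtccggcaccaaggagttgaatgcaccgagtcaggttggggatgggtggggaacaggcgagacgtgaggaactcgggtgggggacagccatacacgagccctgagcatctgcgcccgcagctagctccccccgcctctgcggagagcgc

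In control HCT116 cells, CRABP2 was the most abundant of the 5 genes and DHRS3 came next. Levels between genes were compared per length, in FPKM (fragments scaled by exon length and library total), computed for HCT116 from the counts and exon lengths of the listed genes. In control cells the mean FPKM was 132 ± 24.3 (SD, n = 2) for CRABP2, 20.2 ± 0.94 for DHRS3 and 8.12 ± 1.03 for RDH10. RETSAT, at 0.70 ± 0.18 FPKM, and RARB, at 0.072 ± 0.080 FPKM, were far lower. The libraries of neighbouring genes in this order did not overlap. After Z325 the order was CRABP2 with 46.0 ± 2.31 FPKM, RDH10 with 8.85 ± 2.24, DHRS3 with 2.64 ± 1.16, RETSAT with 1.09 ± 0.084 and RARB with 0.024 ± 0.034. DHRS3 had changed places with RDH10.

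In NCI-H716 the order was different, as read from the FPKM the authors deposited. DHRS3 led in control cells with 30.9 ± 4.23 FPKM, followed by RARB with 8.92 ± 0.014, RDH10 with 7.18 ± 0.78, CYP26A1 with 3.30 ± 1.38 and RETSAT with 2.02 ± 0.83. CYP26A1 and RETSAT overlapped between their libraries, whereas on this scale the 3 genes above them did not overlap with their neighbours. The order of RARB and RDH10 depended on the lengths used. On the genes and exon lengths listed for HCT116 it was reversed, with control RDH10 at 11.4 ± 1.05 FPKM and RARB at 6.11 ± 0.35. RARA with 0.31 ± 0.085 FPKM, RARG with 0.18 ± 0.20 and CRABP2 with 0.17 ± 0.035 lay below 1 FPKM, and neighbours in that order overlapped. ALDH1A3 was at 0.015 ± 0.021. Side by side on the same genes and lengths, with no test because the lines were quantified differently, control DHRS3 was at 20.2 ± 0.94 FPKM in HCT116 and 39.2 ± 5.40 in NCI-H716, CRABP2 at 132 ± 24.3 and 0.18 ± 0.032, and RARB at 0.072 ± 0.080 and 6.11 ± 0.35. CRABP2 was therefore listed high in HCT116 and near 0 in NCI-H716, and RARB the other way round.

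**Figure D1:**
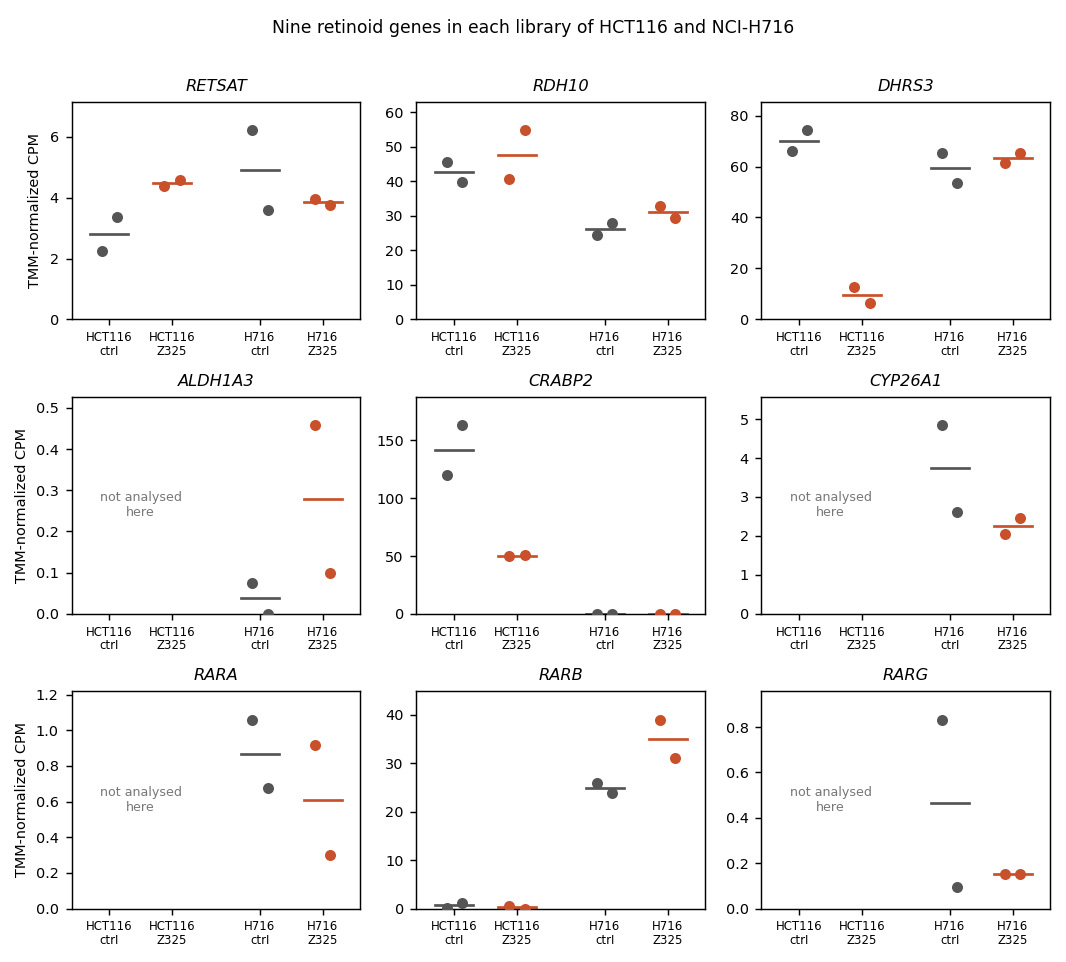
Each panel plots a gene's CPM (linear axis from 0, normalized by the trimmed mean of M values within each line) for the control (ctrl, grey) and Z325 (orange) libraries of HCT116 and NCI-H716 (H716). Points are single libraries and lines are means of 2; both Z325 points of DHRS3 and of CRABP2 in HCT116 lie below both controls, at 12.8 and 6.30 CPM and at 50.3 and 50.7 CPM, and DHRS3 in NCI-H716 stays between 53.7 and 65.1 CPM. The CPM scale differs between the lines because HCT116 covers only part of the genome.

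DHRS3, the short-chain dehydrogenase that reduces retinal to retinol and on which the choice of genes rests, lies on chromosome 1 (GRCh38, 12567910 to 12618210, minus strand) and shares no exon base with another annotated gene. In HCT116 its counts were 916 and 967 in control cells and 163 and 22 after Z325. Scaled by library size and composition these were 66.3 and 74.2 CPM in control cells and 12.8 and 6.30 CPM after Z325. Both treated libraries lay far below both controls. The fitted log2 fold change was -2.80 with a standard error (SE) of 0.33, a level 6.97-fold lower. Without Z325 replicate 2, the shallow library, the log2 fold change was -2.43, and without Z325 replicate 1, which leaves the 22 counts alone, it was -3.49. The size of the difference therefore moved with the library, while the direction was the same in each.

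In NCI-H716 the DHRS3 counts were 860 and 554 in control cells and 804 and 1296 after Z325, or 65.1 and 53.7 against 61.4 and 65.1 CPM. The groups overlapped. The log2 fold change was 0.09 (SE 0.18), and from -0.03 to 0.24 when each library was left out in turn. Set against each other in a fit of all 8 libraries, the log2 fold change of DHRS3 was 2.84 units lower in HCT116 than in NCI-H716, a difference of -2.84 (SE 0.37). This contrast chose the genes, and nothing further is read from it.

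CRABP2, the binding protein that delivers retinoic acid to its receptors, fell in HCT116 (chromosome 1, 156699606 to 156705816, minus strand, no shared exon bases). The counts were 1658 and 2128 in control cells and 643 and 177 after Z325, and 120 and 163 against 50.3 and 50.7 CPM. The treated libraries agreed closely with each other and lay below both controls. The log2 fold change was -1.49 (SE 0.20, 95% interval -1.94 to -1.03), a 2.80-fold lower level, with an adjusted p of 0.00727 in edgeR's quasi-likelihood test with Benjamini-Hochberg adjustment over all 6491 genes tested. The adjusted p ranged from 1.19e-09 to 0.173 over the alternatives. Without the shallow library, which leaves 1 treated library, the log2 fold change was -1.46. Control replicate 2 held the highest CRABP2. Without it, which leaves 1 control library, the log2 fold change was -1.26 and CRABP2 no longer passed in edgeR. In limma on log2(FPKM + 1) the log2 fold change was -1.49 at an adjusted p of 0.0921.

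In NCI-H716, CRABP2 had 1 count in each control library and 0 in each Z325 library. A count of 0 allows up to 3 counts, so both groups were at or under the floor and no change could be read at this depth. The difference of the CRABP2 response between the lines rests on those counts and is not read.

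RDH10, the enzyme that oxidises retinol to retinal, was measured well in both lines (chromosome 8, 73294602 to 73325281, plus strand). It shares 5.2% of its exon bases with RDH10-AS1 on the opposite strand, and without stated strand use those reads cannot be told apart. In HCT116 its counts were 629 and 519 in control cells and 519 and 191 after Z325, or 45.5 and 39.8 against 40.6 and 54.7 CPM. The groups overlapped, and the log2 fold change of 0.15 (SE 0.23, 95% interval -0.39 to 0.68) did not pass the edgeR test (adjusted p = 0.762). Without Z325 replicate 2 the sign turned, to -0.05.

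In NCI-H716 the RDH10 counts were 324 and 289 in control cells and 430 and 583 after Z325, or 24.5 and 28.0 against 32.8 and 29.3 CPM. Both treated libraries lay above both controls. The fitted change was 0.24 on the log2 scale (SE 0.20, 95% interval -0.20 to 0.68; edgeR adjusted p = 0.572). The difference of the RDH10 response between the lines was -0.09 (SE 0.31, 95% interval -0.76 to 0.59; edgeR adjusted p = 0.990).

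The balance of the opposing pair was also described per length. In HCT116 the ratio of RDH10 to DHRS3 FPKM was 0.453 and 0.354 in control cells and 2.1 and 5.72 after Z325. In NCI-H716 it was 0.195 and 0.277 in control cells and 0.276 and 0.237 after Z325. RDH10 was thus the lower of the pair in every library except the Z325 libraries of HCT116. The ratio includes DHRS3 and is not independent of the choice of genes.

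RETSAT, which saturates retinol to dihydroretinol, was low in both lines (chromosome 2, 85341955 to 85354531, minus strand, with 3.4% of exon bases shared with ELMOD3 on the opposite strand). In HCT116 it had 31 and 44 counts in control cells and 56 and 16 after Z325, or 2.24 and 3.38 against 4.38 and 4.58 CPM. The CPM of the treated libraries lay above those of the controls, but the log2 fold change of 0.67 (SE 0.51, 95% interval -0.50 to 1.84) did not pass the edgeR test (adjusted p = 0.483). Without Z325 replicate 2 it was again 0.67 (SE 0.56).

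In NCI-H716 the RETSAT counts were 82 and 37 in control cells and 52 and 75 after Z325, or 6.21 and 3.59 against 3.97 and 3.77 CPM, and the treated libraries lay between the controls. Fitted on the log2 scale, the change was -0.35 (SE 0.39, 95% interval -1.21 to 0.51; edgeR adjusted p = 0.694), and 0.11 without control replicate 1. The signs in the lines were opposite, and the test of that difference gave 1.04 (SE 0.65, 95% interval -0.39 to 2.46; edgeR adjusted p = 0.485), which did not pass.

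ALDH1A3, a dehydrogenase that turns retinal into retinoic acid, was barely detected in NCI-H716. It had 1 and 0 counts in control cells and 6 and 2 after Z325, too few for the test, and 32.1% of its exon bases are shared with ALDH1A3-AS1 on the opposite strand. It made up between 0 and 0.1% of the summed FPKM of ALDH1A1, ALDH1A2 and ALDH1A3, a sum of 125 and 146 FPKM in control cells and 189 and 247 after Z325. Nearly all of that sum came from ALDH1A1 and ALDH1A2, which are described with the wider pathway.

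CYP26A1, the hydroxylase that clears retinoic acid, had 64 and 27 counts in control NCI-H716 cells and 27 and 49 after Z325, or 4.85 and 2.62 against 2.06 and 2.46 CPM. Both treated libraries lay below both controls on the CPM scale, by little in the case of control replicate 2. The log2 fold change was -0.72 (SE 0.46, 95% interval -1.75 to 0.30; edgeR adjusted p = 0.455), and -0.20 without control replicate 1. A same-strand long noncoding RNA shares 25.3% of its exon bases, so the counts are uncertain by reads that could belong to either.

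Of the receptors, RARB was the abundant one in NCI-H716 and made up between 92.8% and 98.0% of the summed FPKM of RARA, RARB and RARG in each library. RARB (chromosome 3, 24687887 to 25597932, plus strand, no shared exon bases) had 342 and 247 counts in control cells and 511 and 619 after Z325. As CPM these were 25.9 and 24.0 against 39.0 and 31.1, with both treated libraries above both controls. The log2 fold change was 0.49 (SE 0.21, 95% interval 0.04 to 0.94). In edgeR with treatment alone the unadjusted p was 0.0371 and the adjusted p 0.270, which did not pass. With the replicate number as a block, edgeR's adjusted p was 0.0315, in a fit that called 2397 genes against 71. The labels tie no replicate numbers together, so that call is not relied on. In HCT116, RARB had 2 and 16 counts in control cells and 6 and 0 after Z325, too few for the test, and the groups overlapped.

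RARA, a receptor found in most tissues, had 14 and 7 counts in control NCI-H716 cells and 12 and 6 after Z325, and its log2 fold change was -0.58 (SE 0.81; edgeR adjusted p = 0.763). RARG, the receptor best known from skin, had 11 and 1 counts in control cells and 2 and 3 after Z325 and did not enter the test. The control libraries of RARG differed from each other more than from the treated ones. Up to 11.7% of the exon bases of RARA are shared with a gene on the opposite strand, RARA-AS1.

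Among the members other than DHRS3, 3 of the 4 present in HCT116 passed the filter on low counts and 1 of these 3, CRABP2, was lower at an adjusted p under 0.05, against 5.78% of all 6491 genes tested in either direction and 2.94% in the lower one. The treated and control libraries did not overlap for RETSAT and CRABP2, against 53.8% of all genes tested. In NCI-H716, 5 of the 8 entered the test and 0 passed in the edgeR fit with treatment alone or in DESeq2, with 1, RARB, at an unadjusted p under 0.05 in edgeR; 0.502% of all 14142 genes passed at the adjusted level and 16.9% at the unadjusted one. The groups did not overlap for RDH10, CYP26A1 and RARB, against 49.4% of all genes tested there. For single values, an exact two-sided permutation test of 2 against 2 libraries cannot give a p below 0.333. In the test of the difference between the lines, 4 members other than DHRS3 entered, of which CRABP2 and RARB had few counts in one of the lines. In edgeR 0 of the 4 passed, against 0.0654% of 7642 genes, and 0 had an unadjusted p under 0.05. The test with library size alone in place of composition also gave 0.

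**Figure D2:**
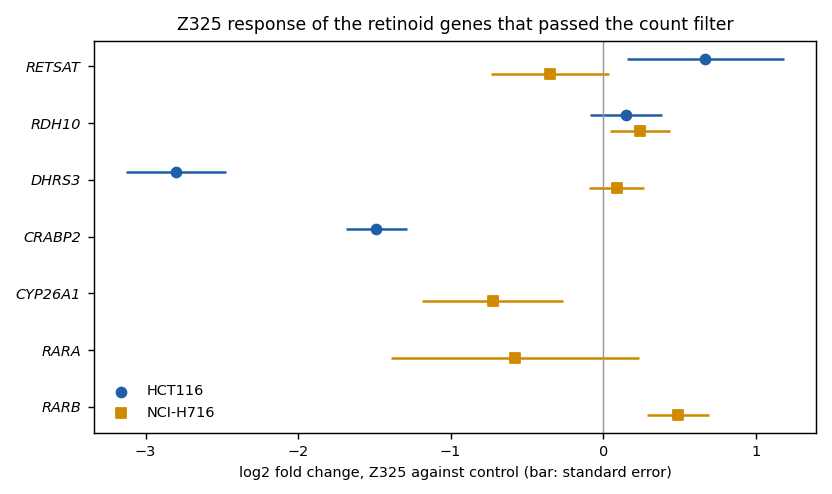
The horizontal axis is the log2 fold change of Z325 against control, with a bar of 1 standard error on each side, for HCT116 (blue circles) and NCI-H716 (ochre squares); the rows are the genes that passed the filter on low counts. DHRS3 at -2.80 and CRABP2 at -1.49 in HCT116 stand away from 0, and DHRS3, whose difference chose the genes, is shown as a description.

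The wider retinoid pathway was read from a list of 45 genes that act beside the members. Of the 22 present in HCT116, 13 passed the filter. In edgeR 1 of them was higher at an adjusted p under 0.05, against 2.83% of all genes tested, and 0 were lower. The median log2 fold change was -0.18 beside -0.03 over all genes tested. The higher gene was AKR1B10, an aldo-keto reductase that, like DHRS3, reduces retinal to retinol. It had 97 and 110 counts in control cells and 721 and 160 after Z325, or 7.02 and 8.44 against 56.4 and 45.8 CPM, a log2 fold change of 2.73 (SE 0.27; edgeR adjusted p = 0.00202). Its libraries did not overlap. AKR1B10 has close paralogs, and how reads shared with them were counted is not given in the sources used here.

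The most abundant genes of the other steps in HCT116 did not pass. RBP7, a cellular retinol-binding protein, had 188 and 182 CPM in control cells and 184 and 152 after Z325, with a log2 fold change of -0.13 (SE 0.15; edgeR adjusted p = 0.646). FABP5, which carries retinoic acid to another receptor, PPARD, had 1146 and 1186 CPM in control cells and 857 and 822 after Z325, and a log2 fold change of -0.47 (SE 0.12; edgeR adjusted p = 0.0565). ADH5, a broad alcohol dehydrogenase, was at -0.31 (SE 0.14; edgeR adjusted p = 0.204), and AKR1B1, the aldose reductase, at 0.35 (SE 0.18; edgeR adjusted p = 0.286). LRAT, which stores retinol as esters, was at -0.19 (SE 0.50; edgeR adjusted p = 0.869), the receptor PPARD at -0.15 (SE 0.46; edgeR adjusted p = 0.896) and the coactivator NCOA2 at 0.14 (SE 0.28; edgeR adjusted p = 0.826). ALDH8A1, a retinal dehydrogenase, had 4 and 6 counts in control cells and 0 in both Z325 libraries, too few for the test. CYP26B1, the retinoic acid hydroxylase present in HCT116, had 33 and 27 counts in control cells and 11 and 1 after Z325, a log2 fold change of -1.75 (SE 0.83; edgeR adjusted p = 0.243).

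Without Z325 replicate 2, the shallow library, 1 treated library was left. The log2 fold change was then 2.89 (SE 0.31) for AKR1B10 and -0.42 (SE 0.15) for FABP5. CYP26B1 was then at -1.34 (SE 0.92), ADH5 at -0.37 (SE 0.16), AKR1B1 at 0.42 (SE 0.18), PPARD at -0.24 (SE 0.49) and NCOA2 at 0.12 (SE 0.32). The signs turned for RBP7, at 0.02 (SE 0.20), and LRAT, at 0.30 (SE 0.43). FABP5, at an edgeR adjusted p of 0.0565 with both treated libraries, lay near the threshold of 0.05. Whether these genes pass is not read from a fit with 1 treated library.

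Levels per length placed FABP5 at 620 ± 5.67 FPKM and CRABP2 at 132 ± 24.3 in control HCT116 cells. After Z325 they were at 434 ± 6.35 and 46.0 ± 2.31 FPKM. RXRB, a receptor partner, was listed at 0 in all 4 HCT116 libraries, and RXRG had at most 4 counts. In NCI-H716, RXRB had between 88 and 136 counts in each library. The lines were quantified differently and how the HCT116 reads were assigned is not given, so the 0 is not read as absent expression.

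In NCI-H716, 28 of the 45 pathway genes passed the filter. In edgeR 2 were higher at an adjusted p under 0.05, against 0.403% of all genes tested, and 0 were lower, with a median log2 fold change of 0.03 beside -0.01 over all genes tested. AKR1B10 had 3 and 9 counts in control cells and 516 and 481 after Z325, or 0.23 and 0.87 against 39.4 and 24.2 CPM. The log2 fold change of 5.91 (SE 0.47; edgeR adjusted p = 0.000404) rests on a control level of a few counts. AKR1C3, another reductase of retinal and of steroids, was among the most abundant genes of the list, with 1782 and 1686 CPM in control cells and 4298 and 3750 after Z325, and its log2 fold change was 1.22 (SE 0.16; edgeR adjusted p = 0.00976). It too has close paralogs. AKR1B1 was at -0.05 (SE 0.16; edgeR adjusted p = 0.898) in this line.

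ALDH1A1, which makes retinoic acid from retinal, had 134 and 146 CPM in control NCI-H716 cells and 226 and 289 after Z325. Both treated libraries lay above both controls, with a log2 fold change of 0.88 (SE 0.18; edgeR adjusted p = 0.0665) that did not pass. ALDH1A2, of the same function, was at 0.07 (SE 0.16; edgeR adjusted p = 0.878). FABP5 was at -0.07 (SE 0.16; edgeR adjusted p = 0.867), RBP4, the serum carrier of retinol, at -0.38 (SE 0.24; edgeR adjusted p = 0.441) and PNPLA4, a retinyl ester lipase, at -0.24 (SE 0.20; edgeR adjusted p = 0.588). ADH5 was at 0.07 (SE 0.15; edgeR adjusted p = 0.851), BCO2, which cleaves carotenoids, at 0.54 (SE 0.81; edgeR adjusted p = 0.780) and RXRB at 0.06 (SE 0.30; edgeR adjusted p = 0.941). CYP26B1 and CYP26C1, the other retinoic acid hydroxylases, had at most 7 counts in a library. NCOR1, a corepressor of the unliganded receptors, was the most abundant coregulator per length and stood at -0.11 (SE 0.17; edgeR adjusted p = 0.790).

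Genes known to respond to retinoic acid were read from a list of 16. In HCT116, 9 were present and 4 passed the filter, and in NCI-H716, 7 passed; in edgeR 0 were called in either line, in either direction. At an unadjusted p under 0.05 in edgeR there were 0 in HCT116 and 2 in NCI-H716, both named after their values were seen, LAMB1, a laminin chain, at 0.74 (SE 0.17; adjusted p = 0.104) and MEIS1, a homeobox gene, at -0.52 (SE 0.21; adjusted p = 0.253). DESeq2 results for the lists are given with the alternatives. The median log2 fold change was -0.28 in HCT116 and 0.06 in NCI-H716, beside -0.03 and -0.01 over all genes tested. HOXA5, a homeobox gene and the most abundant of the 4 per length over the HCT116 libraries, had 8.25 and 4.91 CPM in control cells and 4.15 and 9.17 after Z325, a log2 fold change of -0.05 (SE 0.51; edgeR adjusted p = 0.971). Without Z325 replicate 2 it was -0.64 (SE 0.47).

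**Figure D3:**
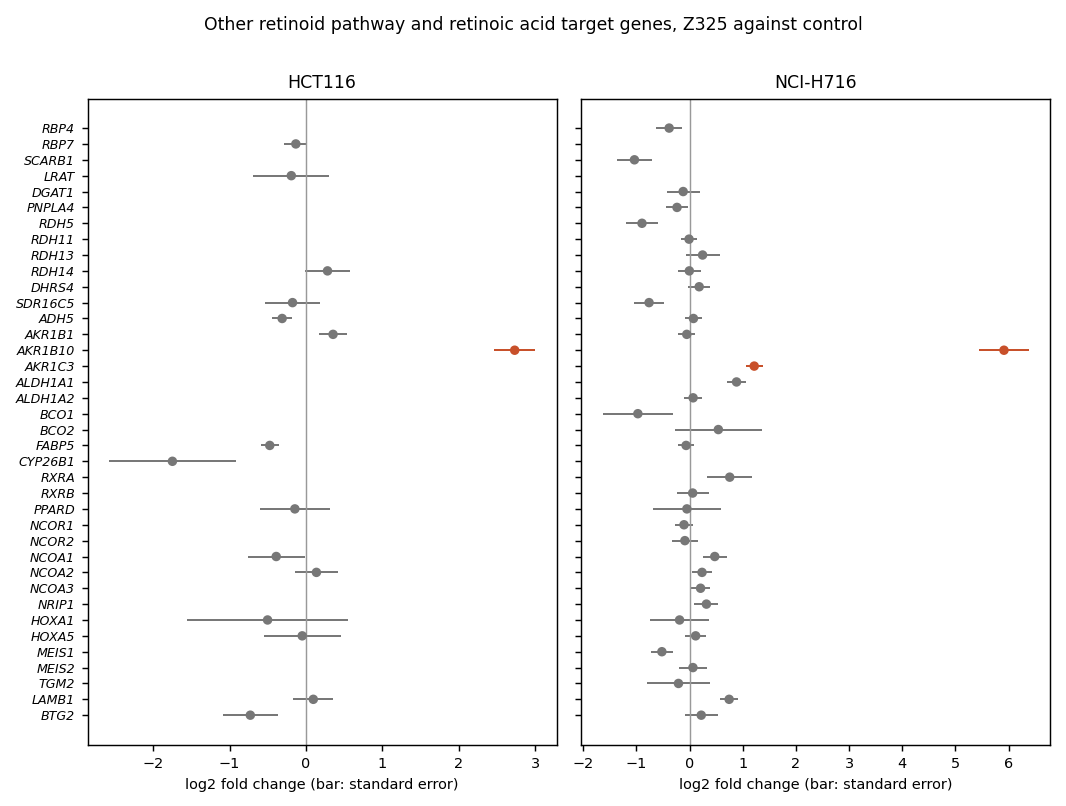
Log2 fold changes of Z325 against control (horizontal axis, bars of 1 standard error) for the listed pathway and target genes that passed the filter and are reported here, with HCT116 on the left and NCI-H716 on the right; orange marks an adjusted p under 0.05. The orange points are AKR1B10 at 2.73 in HCT116 and AKR1B10 at 5.91 and AKR1C3 at 1.22 in NCI-H716, and the other genes lie nearer to 0 or carry wide bars, as CYP26B1 at -1.75 does.

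The genes whose values over the 8 libraries were most like those of DHRS3 were found among 3555 genes tested in both lines with a mean of at least 10 CPM over the HCT116 libraries, by the root mean square difference of log2(CPM + 1) after subtracting each line's mean. They were VSNL1, a neuronal calcium sensor, at 0.33, YY1AP1, a partner of the transcription factor YY1, at 0.379, MTUS1, a microtubule-associated protein, at 0.416, ARHGAP26, a GTPase-activating protein, at 0.426, and OGG1, which repairs oxidised guanine, at 0.439. Their log2 fold changes in HCT116 were -2.19 (SE 0.23) for VSNL1, -1.83 (SE 0.44) for YY1AP1, -2.03 (SE 0.19) for MTUS1, -1.96 (SE 0.30) for ARHGAP26 and -1.73 (SE 0.43) for OGG1. In NCI-H716 they ranged from -0.55 (SE 0.16) for VSNL1 to 0.16 (SE 0.18) for MTUS1. YY1AP1, ARHGAP26 and OGG1 were below 10 CPM after Z325 in HCT116, at means of 5.30, 6.68 and 5.75 CPM, and met that minimum through the control libraries. All 5 were less reduced in HCT116 than DHRS3, which was itself chosen for its fall there, so its place is a description. The libraries share treatment and depth, likeness was selected on these values, and with Pearson's correlation of the same values in its place 0 of the 5 genes were among the 5 most alike.

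**Figure D4:**
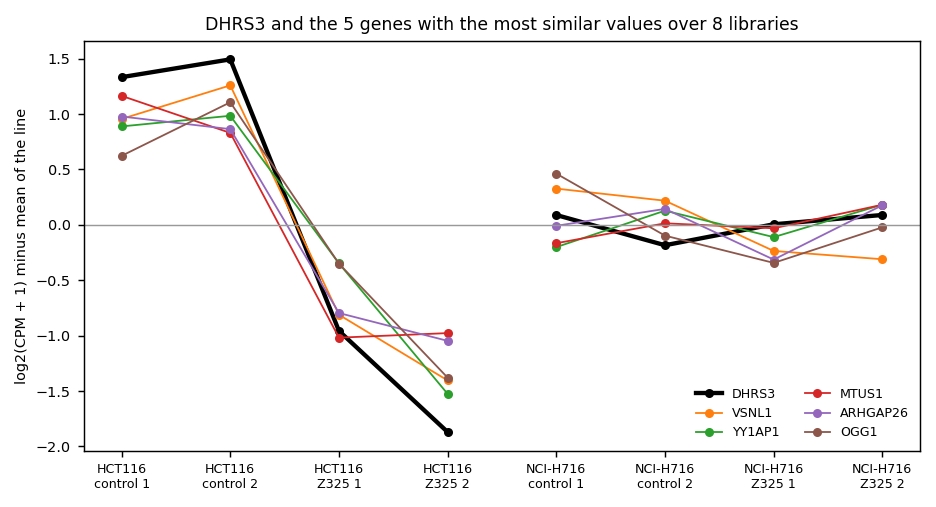
The vertical axis is log2(CPM + 1) minus the mean of the line, for DHRS3 (thick black line) and the 5 genes most like it, over the 8 libraries on the horizontal axis; lines join libraries of the same cell line only to guide the eye. All 6 genes are high in the HCT116 control libraries and low in the HCT116 Z325 libraries, with DHRS3, chosen for its fall there, moving furthest. They spread less in NCI-H716, where VSNL1 is also lower after Z325, at 0.33 and 0.22 in control cells and -0.24 and -0.31 after Z325. OGG1 spans 0.46 to -0.34 there.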

How the data were processed

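For NCI-H716 the authors deposited RSEM expected counts, TPM and FPKM per gene. For HCT116 the deposited table held read counts per gene with exon lengths. The submitters' processing notes list hg38, featureCounts and Bowtie2 2.5.0, and the methods name TrimGalore, STAR and RSEM on GRCh38. Which of them made the HCT116 counts, and whether strand was used, is not given in the sources used here. Of 28047 lines in that table, 4 were left out as incomplete.

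The 9 genes and the wider lists were chosen with earlier results of these data known. Expected counts were rounded to whole numbers. Genes passing filterByExpr were fitted per line with edgeR 4.0.16 (R 4.3.3; TMM, quasi-likelihood test, Benjamini-Hochberg over all genes tested, adjusted p under 0.05), and the difference between lines in 1 fit of 8 libraries over shared genes. Alternatives used DESeq2 1.42.0, limma 3.58.1 on log2(FPKM + 1) and log2(FPKM + 0.1), other filters, a replicate block, leaving out each library, and thinning HCT116 to its shallowest library, which was added after seeing the data. Standard errors of the edgeR fits were the absolute log2 fold change divided by the square root of the F statistic. The 95% intervals were built from them. HCT116 FPKM was computed from the deposited counts. Named genes were the members, list genes called with separate groups, the most abundant list gene of each step per length, and the 5 genes most like DHRS3. Gene positions, symbols and shared exons came from GENCODE v44. One listed pathway gene, counted in the list totals, is not reported here. The steps were tested on simulated data. Depth ran from 3434620 to 13396225 counts over the listed genes in HCT116 and from 10210239 to 19738840 over all genes in NCI-H716. It limits genes of a few counts, and the floor of 3 counts covers counting error only.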

Additional observations from a re-analysis of the deposited data

How the results depend on the processing

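The causes of the changes given here were not tested. The CRABP2 fall in HCT116 no longer passed in limma on log2(FPKM + 1) (-1.49, adjusted p = 0.0921) or log2(FPKM + 0.1) (-1.51, adjusted p = 0.173), nor without control replicate 2 (-1.26, adjusted p = 0.123); leaving out each library gave -1.70 to -1.26. The DHRS3 log2 fold change, with no test, ran from -3.49 to -2.43 in HCT116 and from -0.03, without control replicate 2, to 0.24 in NCI-H716 when each library was left out, so its small positive value in NCI-H716 turned sign. The sign turned for RDH10 in HCT116 without Z325 replicate 2 (-0.05; -0.05 to 0.34 over the libraries left out), for RETSAT in NCI-H716 without control replicate 1 (0.11; -0.67 to 0.11), and for RARA without Z325 replicate 2 (0.08; -1.50 to 0.08), and was lost for RARA in limma on log2(FPKM + 1) (0.00); none of these passed.

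With the replicate number as a replicate block, RARB in NCI-H716 passed (0.49, adjusted p = 0.0315; range over all its alternatives 0.0315 to 0.809), and 1 member, 8 list genes and 2397 genes in all were called there, and 12 in the test between lines. The labels tie no numbers together. The differences between replicates 1 and 2 in control and in Z325 cells were correlated across genes. The correlation was -0.022 in HCT116 (6491 genes) and 0.29 in NCI-H716 (14142 genes), with only 2 pairs of libraries in each line. The block changed no other call of a member.

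Members called in HCT116 numbered 0 in both limma fits and 0 to 1 when each library was left out, and in NCI-H716 0 when each was left out. List genes called in HCT116, 1 in the reported fit, were 2 with DESeq2, library size alone, a minimum of 10 counts or thinning, 3 with no filter, 0 in both limma fits and 1 to 3 with a library left out (3 without Z325 replicate 1, 2 without Z325 replicate 2). In NCI-H716, against 2, they were 4 with DESeq2, 1 with a minimum of 10 counts, 5 with no filter, 1 and 0 in limma, 1 with all 8 libraries in 1 fit and 1 to 5 with a library left out (1 without control replicate 1, 5 without Z325 replicate 1). In the test between lines 0 to 1 list genes passed with a library left out.

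Over all genes, HCT116 gave 375 calls, but 709 with DESeq2, 615 with a minimum of 10 counts, 683 with no filter, 0 and 4 in limma and from 23 without control replicate 2 to 1076 without Z325 replicate 2. NCI-H716 gave 71, 57 higher and 14 lower, but 316 with DESeq2, 162 higher and 154 lower, 777 with no filter, 7 and 1 in limma, 19 with all 8 libraries in 1 fit and from 38 without control replicate 1 to 1386 without Z325 replicate 1. The test between lines gave 5, but 26 with a minimum of 10 counts and 0 to 61 with a library left out, the most without HCT116 Z325 replicate 2. A fit that leaves an arm with 1 library assumes that it varies like the other group. Genes of a few counts, RARB and CRABP2 in the line where each is low and ALDH1A3 and RARG, could not be compared at this depth.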

Other observations

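Other genes of the retinol steps in NCI-H716 had values not described above. SCARB1, a receptor that takes up lipoproteins and carotenoids, had 302 and 145 counts in control cells and 150 and 134 after Z325, with a log2 fold change of -1.04 (SE 0.33; edgeR adjusted p = 0.176). RDH5, a retinol dehydrogenase best known from the eye, was at -0.90 (SE 0.31; edgeR adjusted p = 0.203), but shares 68.2% of its exon bases with another gene on the same strand. SDR16C5, which oxidises retinol in epithelia, was at -0.76 (SE 0.28; edgeR adjusted p = 0.224) in NCI-H716 and at -0.18 (SE 0.35; edgeR adjusted p = 0.821) in HCT116. These 3 were at an unadjusted p under 0.05 in NCI-H716 and are named after their values were seen. The difference of the AKR1B10 response between the lines was -3.17 on the log2 scale (SE 0.60; edgeR adjusted p = 0.0724) and did not pass. DGAT1, which esterifies retinol and other alcohols, was listed at 0 in all 4 HCT116 libraries, as RXRB was. Whether these genes were absent or their reads were not assigned to them was not tested.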
